A study of Mus musculus with 9 samples.

Results

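Bone morphogenetic proteins (BMPs) are secreted ligands of the TGF-beta superfamily. They bind pairs of type I and type II receptors, which phosphorylate SMAD1, SMAD5 and SMAD9, and these enter the nucleus with SMAD4. Among the best known direct targets are the Id genes, whose products are helix-loop-helix proteins without a DNA-binding region that hold E proteins and other partners off DNA. The pathway limits itself through SMAD6, an inhibitory SMAD that is itself a target, and is held back outside the cell by antagonists such as gremlin 1. In lung it is best known for the pulmonary arteries, since loss of BMPR2 function is the leading inherited cause of pulmonary arterial hypertension. The 10 genes described here, of 25526 names in the deposited table, were listed by symbol, and each was found once. They are the ligands Bmp4, Bmp5 and Bmp6, the receptors Bmpr2 and Acvrl1, the inhibitors Smad6 and Grem1, and the Id genes Id1, Id2 and Id3.

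RNA was sequenced from whole lungs of 9 mice, 3 in each of 3 groups: normal, a pulmonary fibrosis model, and PepNzymeSOD-CAT, a self-assembled polypeptide nanozyme made for inhalation whose name points to superoxide dismutase and catalase activity (the nanozyme group). The comparisons ask how the model changed lung expression and what the nanozyme did to it. Strain, age, sex, the agent that induced fibrosis, doses, times, and whether every nanozyme mouse first received that agent are not given in the sources used here. Each library is 1 animal, so the p-values measure the spread between these mice. That spread is estimated from all 9 libraries together in every comparison, also where normal lung is not compared. Values are FPKM, fragments scaled by transcript length and by library size, a scale on which genes of different length can be compared. They summed to between 443746 and 519772 per library. Read depth is unknown, so no counting error can be given.

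Lung markers were high in every group. The summed FPKM of 10 alveolar epithelial markers ran from 10776 to 33282, and no marker of the lists used here was at 0 throughout a group. A pair of libraries stood apart within their groups for the genes described. Model replicate 2 was the lowest of its group for 8 of the 10 genes and the highest for Id2. Nanozyme replicate 2 was the lowest of its group for 9 of the 10, all but Grem1. It lay within the range of the model libraries for 8 of the 10, Grem1 among them.

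To show the sequence context of genes that fell together, the 250 bases before the RefSeq start site (GRCm38.p6) are printed for Smad6, Bmp4 and Bmp5, which fell in the model, and for Grem1. RefSeq start windows were matched for 8 of the 10 genes, all but Id1 and Acvrl1, which were therefore not searched. Those printed are the 4 that lie before the GENCODE gene model (the Bmp5 window shares 1 base with it). They run 5′ to 3′ on the strand of the gene, in lower case, with motif matches in capitals. The windows lie at chr9:64022060-64022309, minus strand (Smad6), chr14:46390670-46390919, minus strand (Bmp4), chr9:75775115-75775364, plus strand (Bmp5), and chr2:113758649-113758898, minus strand (Grem1).
Smad6: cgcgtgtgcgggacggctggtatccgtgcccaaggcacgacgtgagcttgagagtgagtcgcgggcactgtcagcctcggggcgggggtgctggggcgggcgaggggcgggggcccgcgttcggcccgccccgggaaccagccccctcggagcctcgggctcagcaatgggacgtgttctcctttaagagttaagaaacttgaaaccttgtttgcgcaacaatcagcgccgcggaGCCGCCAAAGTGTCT
Bmp4: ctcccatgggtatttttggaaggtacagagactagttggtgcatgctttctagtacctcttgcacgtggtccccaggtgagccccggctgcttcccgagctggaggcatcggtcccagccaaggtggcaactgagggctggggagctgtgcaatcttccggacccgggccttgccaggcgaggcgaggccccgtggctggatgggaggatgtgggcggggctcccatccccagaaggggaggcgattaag
Bmp5: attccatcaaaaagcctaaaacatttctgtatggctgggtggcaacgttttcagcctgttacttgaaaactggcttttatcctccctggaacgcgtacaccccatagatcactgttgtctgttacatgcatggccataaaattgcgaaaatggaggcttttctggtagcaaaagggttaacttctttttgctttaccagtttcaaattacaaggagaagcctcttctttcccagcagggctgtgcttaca
Grem1: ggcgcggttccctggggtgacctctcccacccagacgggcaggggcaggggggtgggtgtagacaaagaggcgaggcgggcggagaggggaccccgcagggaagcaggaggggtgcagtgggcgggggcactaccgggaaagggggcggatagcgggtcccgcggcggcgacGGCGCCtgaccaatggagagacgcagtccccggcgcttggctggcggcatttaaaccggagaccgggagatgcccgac

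Motifs of the kind that BMP-activated SMADs bind were searched on both strands of these 250 bases. The spaced motif GNCGNCNNNNNGTCT was found in Smad6 alone among the 8 windows, beginning 15 bases before the start site, and 0.511% of 32851 RefSeq windows hold it. The palindrome GGCGCC was in 3 of the 8 windows (Bmpr2, Grem1 and Id2) against 9.59% of all windows. The SMAD palindrome GTCTAGAC was in 0 of the 8 and in 0.167% of all. The motifs can share bases, and a match is a run of letters, not a shown binding site. The windows differed in base composition. Smad6 held 27 CG pairs, Grem1 24, Bmpr2 and Bmp6 22 each, Id2 and Id3 18 each, Bmp4 11 and Bmp5 4. The median of all windows was 6 and the upper quartile 16. Every window with a match was above that quartile, and the shares over all windows are not matched for CG pairs.

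Compared with normal lung, 6 of the 9 tested genes fell in the model and 0 rose: all 3 ligands, the receptor Bmpr2, the inhibitor Smad6 and the target Id1. Their log2 changes ran from -0.66 for Bmp5 to -1.43 for Smad6. Acvrl1, Id2 and Id3 did not pass the test, and Grem1 was too low to be tested. Among all 14540 genes tested, 22.7% were called lower and 17.4% higher in this comparison, so a fall was common in the table as a whole. The median log2 change was -0.83 over the 9 genes and -0.12 over all tested genes. Tests used limma on log2(FPKM + 1), and every adjusted p below is from that fit with Benjamini-Hochberg adjustment over all tested genes. All 9 tested genes had at least 1 FPKM in each of the 9 libraries, so none entered through 1 group alone. In 7 of the 9 every model library was below every normal library, as was so for 34.9% of all tested genes.

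**Figure D1:**
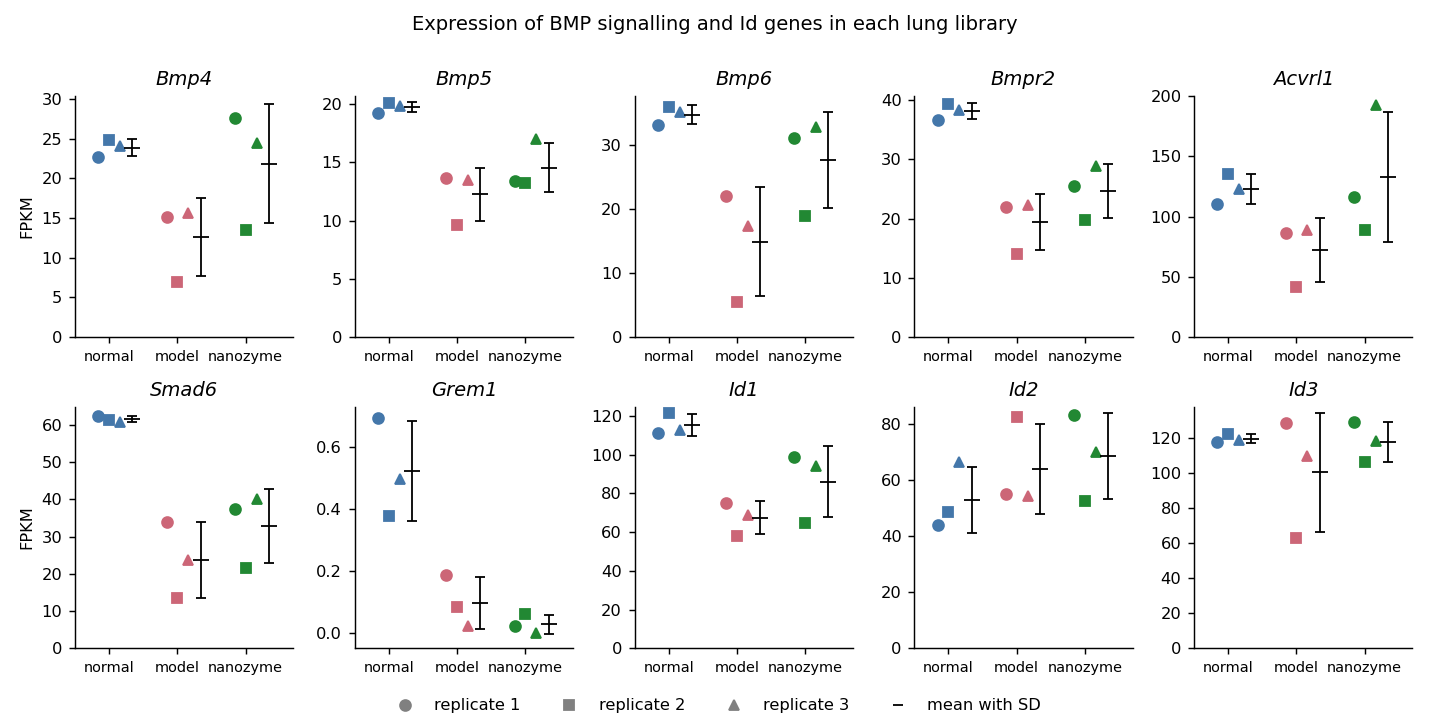
FPKM of each gene (vertical axes, separate scales) in the 3 normal, 3 model and 3 nanozyme libraries; symbols mark the replicate and the black bars the mean with SD (n = 3). For 7 of the 9 tested genes every model library lies below every normal library, while Id2 and Id3 overlap between the groups.

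The ligands are secreted as dimers and differ in where the lung makes them. Bmp4 (chromosome 14, 46383520 to 46390669), which patterns the branching lung bud in development, was at 22.7, 24.9 and 24.0 FPKM in normal lung, at 15.1, 6.93 and 15.7 in the model, and at 27.6, 13.4 and 24.4 in the nanozyme group. All 3 model values were below all normal values, and nanozyme replicate 2 alone of its group lay in the model range. The change from normal to model was -0.95 ± 0.33 (log2 ± SE, adjusted p = 0.0482). That call was close to the threshold: it ended without normal replicate 1, 2 or 3 (adjusted p = 0.0979, 0.112 and 0.113), without model replicate 2 (a change of -0.60, adjusted p = 0.120) and without nanozyme replicate 3 (0.0629). It also ended with no filter (0.0693), with a mean of at least 5 FPKM (0.05002), with equal column sums (0.0944), with median-of-ratios scaling (0.0591), with no intensity trend (0.0507) and with endothelial scaling (0.377).

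Bmp6 (chromosome 13, 38345107 to 38500302), a ligand that also sets liver hepcidin, showed the largest fall among the 3 ligands listed. It stood at 33.1, 35.9 and 35.1 FPKM in normal lung, at 22.0, 5.44 and 17.3 in the model, and at 31.1, 19.0 and 32.8 in the nanozyme group. Groups did not overlap between normal and model, and model replicate 2 was far below the other model libraries. The change was -1.36 ± 0.43 (adjusted p = 0.0355) and shrank to -0.80 (adjusted p = 0.0345) without model replicate 2, and the call ended without normal replicate 1, 2 or 3 (0.0807, 0.0862 and 0.0899), with no filter (0.0532) and with equal column sums (0.0623).

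Bmp5 (chromosome 9, 75775364 to 75900310), a close relative of Bmp6 in sequence, varied least. Its values were 19.3, 20.1 and 19.9 FPKM in normal lung, 13.6, 9.64 and 13.5 in the model, and 13.4, 13.3 and 17.02 in the nanozyme group. Here all 6 model and nanozyme libraries were below the normal ones. The change from normal to model was -0.66 ± 0.15 (adjusted p = 0.00986). Within a library, the level of Bmp6 relative to Bmp4 was 1.44 to 1.46 in normal lung, 0.784 to 1.45 in the model and 1.13 to 1.41 in the nanozyme group.

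Receptors of both types were among the genes. Bmpr2 (chromosome 1, 59763400 to 59879014), the type II BMP receptor, was at 36.6, 39.3 and 38.3 FPKM in normal lung, at 22.0, 13.99 and 22.2 in the model, and at 25.5, 19.7 and 28.8 in the nanozyme group. Every model and nanozyme library was below every normal library. The change in the model was -0.97 ± 0.19 (adjusted p = 0.00604), and it was -0.76 without model replicate 2 (adjusted p = 0.0112).

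Acvrl1 (chromosome 15, 101128522 to 101145336) encodes ALK1, a type I receptor of endothelial cells for the circulating ligands BMP9 and BMP10. It was at 111, 135 and 123 FPKM in normal lung, at 86.6, 42.0 and 88.8 in the model, and at 116, 89.2 and 193 in the nanozyme group. The model values lay below both other groups without overlap, and nanozyme replicate 3 was the highest of all 9. The fall in mean from 123 ± 12.3 to 72.5 ± 26.4 FPKM (SD, n = 3) did not pass (-0.83 ± 0.34, 95% interval -1.61 to -0.05, adjusted p = 0.0838), and was at -0.48 without model replicate 2 (adjusted p = 0.229). The ratio of Acvrl1 to Bmpr2 within a library was 3.02 to 3.44 in normal lung, 3.00 to 3.996 in the model and 4.52 to 6.70 in the nanozyme group. All nanozyme ratios were thus above all others, which was noticed in the values and not tested.

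Smad6 (chromosome 9, 63953076 to 64022059), which blocks the receptors from reaching SMAD1, SMAD5 and SMAD9, showed the largest change of the 9 tested genes. Its values in normal lung were 62.4, 61.3 and 60.8 FPKM, against 33.9, 13.6 and 23.7 in the model and 37.3, 21.6 and 40.03 in the nanozyme group. The normal libraries agreed closely, and the other 6 were all below them. In the model the change was -1.43 ± 0.32 (adjusted p = 0.00974), and -1.09 without model replicate 2 (adjusted p = 0.0209). Smad6 was also the only gene of the 9 called in every one of 21 alternative fits of this comparison. The related inhibitor Smad7, which acts on TGF-beta receptors as well, was at 15.8 ± 0.0828 FPKM in normal and 11.4 ± 3.56 in model lung and did not pass (-0.48 ± 0.21, adjusted p = 0.107). The level of Smad6 relative to Smad7 was 3.85 to 3.96 in normal libraries, 1.81 to 2.36 in model libraries and 2.15 to 3.12 in nanozyme libraries.

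Grem1 (chromosome 2, 113746164 to 113758646) encodes gremlin 1, a secreted antagonist that binds BMP2, BMP4 and BMP7. It was the lowest of the 10 genes in every group: 0.694, 0.376 and 0.497 FPKM in normal lung, 0.186, 0.0836 and 0.0213 in the model, and 0.0211, 0.0618 and 0 in the nanozyme group. All normal values were above all others, at levels below the 1 FPKM needed for testing. With no filter on low values its model change was -0.47 (adjusted p = 0.00705) on a scale that compresses such low values. The counts behind these values are unknown, and the gene is listed at 0 in nanozyme replicate 3.

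The 3 Id genes did not move as a block. Id1 (chromosome 2, 152736251 to 152737410), the Id gene most used as a readout of BMP signalling in endothelium, was at 111, 122 and 113 FPKM in normal lung, at 75.3, 58.2 and 69.0 in the model, and at 99.0, 64.9 and 94.3 in the nanozyme group. The model libraries lay below the normal ones without overlap, and so did the nanozyme libraries. The change in the model was -0.77 ± 0.17 (adjusted p = 0.00900), and -0.67 without model replicate 2 (adjusted p = 0.0279).

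Id3 (chromosome 4, 136143497 to 136145755) shares with Id1 roles in vessel growth and lymphocyte development. It was at 118, 123 and 119 FPKM in normal lung, at 129, 63.1 and 110 in the model, and at 129, 106 and 118 in the nanozyme group. Model replicate 1 was above every normal library and model replicate 2 far below, so the groups overlapped. The change did not pass (-0.31 ± 0.23, 95% interval -0.84 to 0.22, adjusted p = 0.314), and it was -0.01 without model replicate 2 (adjusted p = 0.961). Id2 (chromosome 12, 25093799 to 25097140), which innate lymphoid and NK cells need for their development, was at 44.1, 48.6 and 66.4 FPKM in normal lung, at 55.2, 82.5 and 54.3 in the model, and at 83.3, 52.6 and 70.0 in the nanozyme group. Its groups overlapped in each comparison, and the change in the model did not pass (0.26 ± 0.23, 95% interval -0.28 to 0.80, adjusted p = 0.400).

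Relative levels within the family therefore differed between libraries. Id1 was at 0.943 to 0.992 of the Id3 level in normal libraries, at 0.584, 0.923 and 0.628 in the model, and at 0.765, 0.611 and 0.797 in the nanozyme group. Relative to Id2, Id1 was at 1.70 to 2.52 in normal, 0.706 to 1.36 in model and 1.19 to 1.35 in nanozyme libraries, so that the normal libraries did not overlap with the others. These ratios were chosen with the values known and carry no test.

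The order of mean levels differed between the groups. In normal lung Acvrl1, Id3 and Id1 led, at mean FPKM of 123, 120 and 115, with ranges that overlapped from one to the next. Smad6 (61.5) and Id2 (53.0) followed and overlapped, and below them Bmpr2 (38.1), Bmp6 (34.7), Bmp4 (23.9), Bmp5 (19.8) and Grem1 (0.522) were each separated from the next. In the model Id3 had the highest mean at 101, but from Id3 through Acvrl1 and Id1 to Id2 each range overlapped with the next. In model replicate 2, Id2 (82.5) was above Id3 (63.1). By mean and range Id2 (64.0) stood above Smad6 (23.7) without overlap. From Smad6 down to Bmp5 (12.3) every neighbour in the model overlapped with the next.

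**Figure D2:**
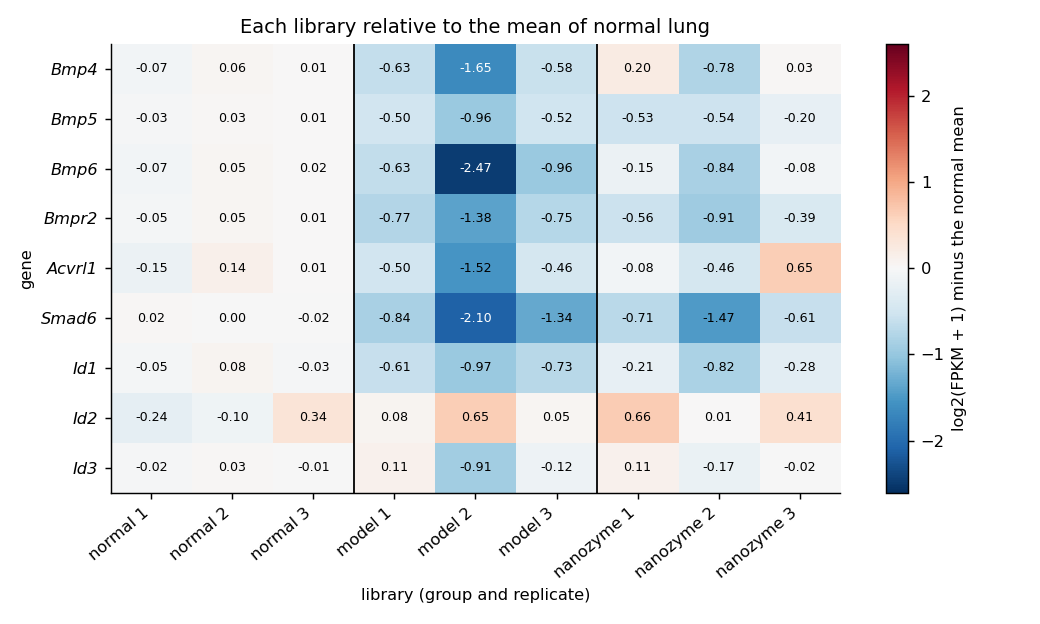
Difference of log2(FPKM + 1) from the mean of the 3 normal libraries (colour and printed value) for the 9 tested genes (rows) in each of the 9 libraries (columns). Model replicate 2 holds the lowest values, -2.47 for Bmp6 and -2.10 for Smad6, and nanozyme replicate 2 is lower than the other nanozyme libraries for all 9 genes, for Bmp5 only from -0.53 to -0.54.

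Spread within groups was unequal. In normal lung the SD of log2 values was between 0.02 and 0.14 for 8 of the 9 tested genes and 0.30 for Id2. In the model it ran from 0.19 for Id1 to 0.98 for Bmp6. Without model replicate 2, 5 of the 6 falls were still called, the exception being Bmp4.

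The 10 genes were set beside 56 others listed with the pathway. The list also holds TGF-beta superfamily ligands that are not BMPs, such as Gdf15. Of the 56, 39 were tested. Of the 39, 20 fell and 3 rose in the model, with a median log2 change of -0.59. Over all tested genes 22.7% were called lower and 17.4% higher, and each count by role below stands beside these shares. The 23 calls became 14 without normal replicate 1 and 13 without normal replicate 3. Among type I receptors, Bmpr1b fell most, from 5.03 ± 0.585 to 0.972 ± 0.301 FPKM (-1.62 ± 0.20, adjusted p = 0.000906), and Bmpr1a fell by 0.66 ± 0.15 (adjusted p = 0.00885). The co-receptor Rgmb fell from 10.51 ± 0.251 to 5.84 ± 1.24 FPKM (-0.77 ± 0.15, adjusted p = 0.00521). The endothelial co-receptor Eng, which partners ALK1, was at 94.0 ± 6.46 and 60.9 ± 21.1 FPKM and did not pass (-0.68 ± 0.25, adjusted p = 0.0610), nor did the type I receptor Acvr1 (adjusted p = 0.120). Of the 9 tested receptors and co-receptors 5 fell and 0 rose.

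Of the 4 signalling SMADs, 3 fell. Smad5 went from 22.5 ± 1.04 to 12.5 ± 2.43 FPKM (-0.82 ± 0.14, adjusted p = 0.00326), Smad9 from 2.25 ± 0.264 to 0.449 ± 0.284 FPKM (-1.18 ± 0.38, adjusted p = 0.0358), and Smad4 fell by 0.44 ± 0.11 (adjusted p = 0.0160). Smad1 was at 8.93 ± 0.292 and 8.998 ± 1.17 FPKM in normal and model lung, and its change was 0.00 ± 0.12 (adjusted p = 0.986). Intracellular inhibitors fell in 3 of 6 cases, among them Tob1, an antiproliferative protein that binds BMP SMADs (-1.26 ± 0.17, adjusted p = 0.00138), and the ubiquitin ligase gene Smurf2 (-0.84 ± 0.16, adjusted p = 0.00460).

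Extracellular antagonists and modulators were called in both directions, with 5 of 12 lower and 2 higher. Among all tested genes 22.7% were lower and 17.4% higher, so the rises were near the share of the whole table. Fst, encoding follistatin, which traps activins and some BMPs, rose most in the pathway. It was at 1.10, 0.878 and 0.949 FPKM in normal lung, at 5.25, 10.6 and 6.14 in the model, and at 1.19, 3.41 and 0.893 in the nanozyme group (model change 2.02 ± 0.33, adjusted p = 0.00289). Model replicate 2, lowest for most of the genes described, was highest here. Bambi, a pseudoreceptor that lacks a kinase domain, fell from 6.68 ± 0.456 to 2.65 ± 0.668 FPKM (-1.09 ± 0.24, adjusted p = 0.00832), and Kcp, a secreted modulator, fell by 1.05 ± 0.22 (adjusted p = 0.00762). Nog, encoding the antagonist noggin, was at most 0.347 FPKM in any library and was not tested.

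Of the 3 other ligands tested, 2 fell and 1 rose. Bmp3 fell from 12.3 ± 0.845 to 3.24 ± 1.57 FPKM (-1.72 ± 0.37, adjusted p = 0.00818). Bmp2 fell as well (-0.49 ± 0.16, adjusted p = 0.042), and Gdf15 rose (1.33 ± 0.46, adjusted p = 0.0495). Of the 5 other target genes tested, 2 fell. Hey1, a Notch and BMP target in endothelium, stood at 24.9, 27.5 and 27.2 FPKM in normal lung, at 8.40, 4.29 and 7.23 in the model, and at 16.5, 8.77 and 26.9 in the nanozyme group (model change -1.89 ± 0.36, adjusted p = 0.00475). Id4, the fourth Id gene, fell from 5.78 ± 2.37 to 1.69 ± 0.641 FPKM (-1.30 ± 0.34, adjusted p = 0.0175). Of the 3 E protein genes, the partners of Id proteins, Tcf12 fell (-0.81 ± 0.20, adjusted p = 0.0129).

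**Figure D3:**
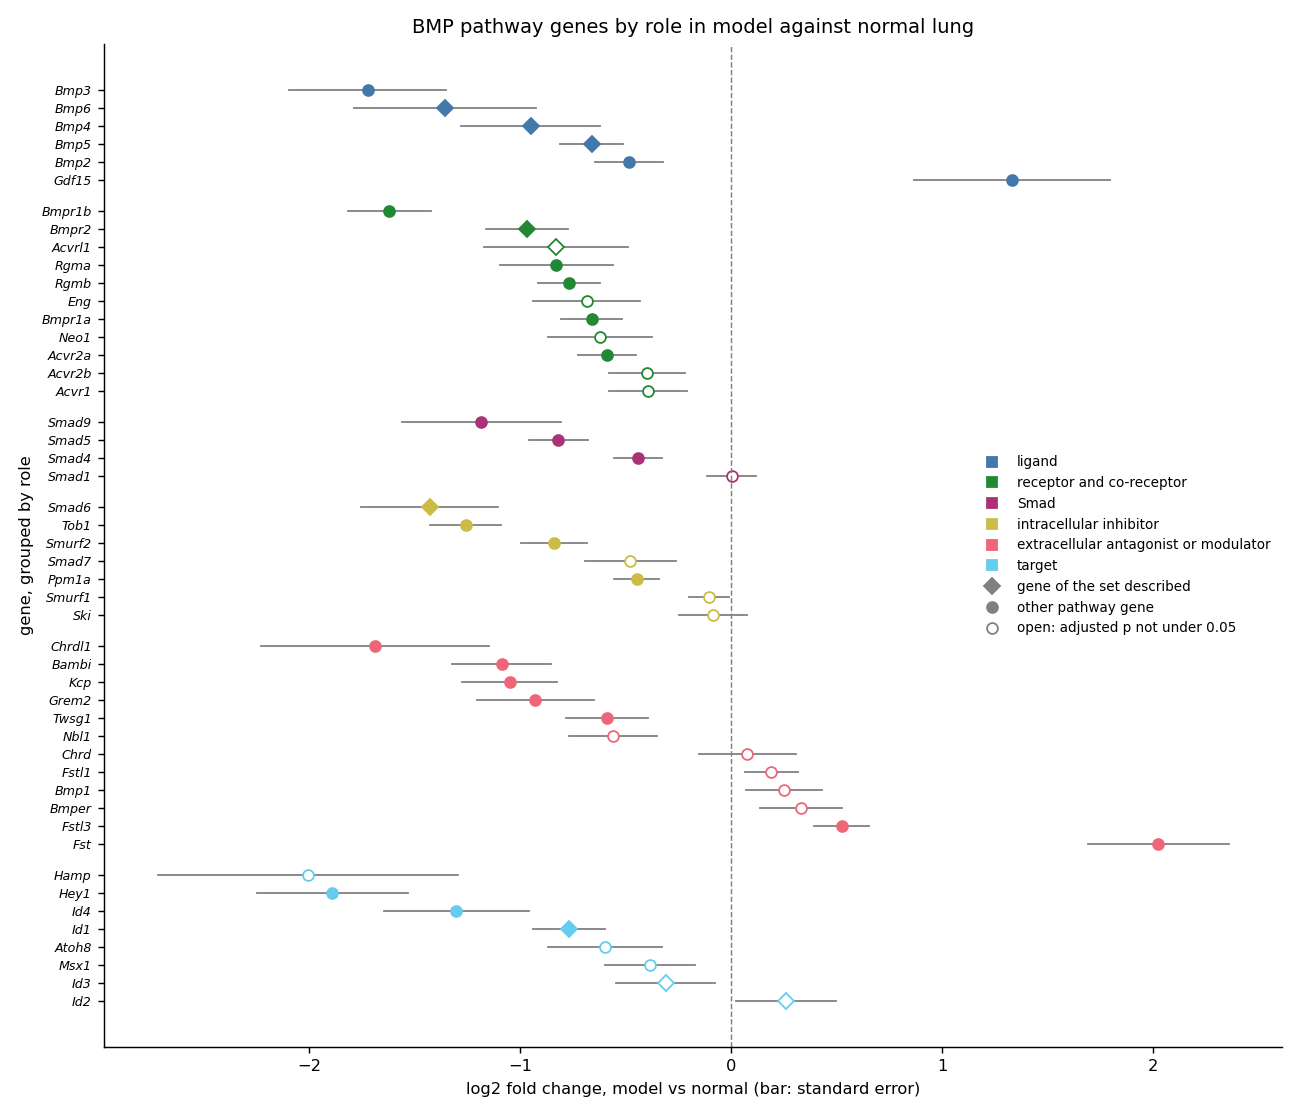
Log2 fold change of model against normal lung (horizontal axis, bar: standard error) for the 48 tested genes, 9 described here (diamonds) and 39 others (circles), grouped by role; filled symbols have an adjusted p under 0.05. Most filled symbols lie left of 0, and Fst, Gdf15 and Fstl3 lie right of it; with levels set relative to endothelial markers the counts of the 39 turn to 9 higher and 3 lower, and 95.7% of calls over all tested genes are then higher.

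Markers of several lung cell types were lower in the same libraries. In bulk lung, fewer cells of a type and less RNA per cell cannot be told apart. The marker counts that follow stand beside 22.7% of all tested genes called lower and 17.4% called higher in the model. Of 15 endothelial markers, 6 fell and 0 rose in the model. Their summed FPKM was 1607 to 1907 in normal, 735 to 1388 in model and 1294 to 1988 in nanozyme libraries, and model replicate 2 held the 735. Of 10 resident fibroblast markers 6 fell (sums 2039 to 2611 in normal and 482 to 1196 in model lung). Inmt weighed heavily in these sums, with a mean of 1597 FPKM in normal lung, where the mean sum was 2350. In the model Inmt had a mean of 252, where the mean sum was 901. Mfap4 of the same list was higher in mean in the model (416 ± 206 against 301 ± 27.0 FPKM), with overlap, and was not called. Of 10 smooth muscle and pericyte markers 5 fell (sums 365 to 511 and 140 to 212). Neutrophil markers went the other way, with 6 of 6 higher and sums of 36.9 to 46.1 in normal and 2393 to 3115 in model lung, as did 6 of 8 macrophage markers (122 to 130 and 821 to 1025). By smallest adjusted p the first marker was Emcn among endothelial (-0.57 ± 0.11, adjusted p = 0.00471), Tcf21 among fibroblast (-1.82 ± 0.40, 0.00836) and Retnlg among neutrophil markers (5.29 ± 0.30, 7.65e-05). Among smooth muscle markers Tagln (-1.91 ± 0.33) and Acta2 (-1.47 ± 0.25) shared it (adjusted p = 0.00333). Alveolar markers fell in 6 of 10 cases and airway markers in 5 of 6, while 3 of 8 lymphocyte markers rose, among them the NK cell receptor gene Ncr1 (1.28 ± 0.14, adjusted p = 0.000583) and Nkg7 (1.90 ± 0.23, adjusted p = 0.000829). Changes below 0 were seen in 2 of the 8. Klrb1c of the same list was not higher in mean, at 3.20 ± 0.590 FPKM in normal and 3.08 ± 0.308 in model lung. Lymphocyte marker sums were 37.4 to 51.3 in normal, 72.5 to 84.9 in model and 76.6 to 173.9 in nanozyme libraries.

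With every library scaled to the same mean log2 level of the 15 endothelial markers, an alternative chosen after seeing the data, 1 of the 6 calls remained: Smad6, at -0.71 (adjusted p = 0.0291). Bmp6 was at -0.63 (adjusted p = 0.0770), Bmpr2 at -0.24, Bmp4 at -0.23 and Id1 at -0.05, and Bmp5 turned to 0.06. Over all tested genes, the median change went from -0.12 to 0.60 under it. The part of other cell types in the falls was not tested.

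Against the model, 0 of the 9 genes passed the test in the nanozyme group, as did 0 of all 14540 genes tested (0% higher and 0% lower). At an unadjusted p under 0.05 by limma there were 3 of the 9, all higher, where 13.4% of all tested genes were higher at that level. These were Bmp4 (0.77 ± 0.33), Bmp6 (1.0 ± 0.43) and Acvrl1 (0.87 ± 0.34), with adjusted p = 0.220, 0.222 and 0.197. All 9 changes were above 0, with a median of 0.34 against 0.09 over all tested genes. Most tested genes had a change above 0 too, with 5401 of 14540 below it. The 9 changes come from the same libraries, so their signs are not independent. Only Acvrl1 had every nanozyme library above every model library, a pattern that 10.6% of tested genes showed.

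The interval of the difference was widest for Bmp6, at 0.02 to 1.98. For Bmp6 the SD of log2 values was 0.06 in normal, 0.98 in model and 0.42 in nanozyme libraries. The shared spread includes the normal libraries, so p-values and intervals here draw on their close agreement too. Smad6 was 0.50 higher on the log2 scale (95% interval -0.24 to 1.24, adjusted p = 0.375) and Bmpr2 0.34 (-0.10 to 0.79, adjusted p = 0.318). Id1 was at 86.1 ± 18.5 against 67.5 ± 8.62 FPKM (0.33 ± 0.17, 95% interval -0.06 to 0.72, adjusted p = 0.282). Bmp5 changed by 0.24 ± 0.15, Id3 by 0.28 ± 0.23 and Id2 by 0.10 ± 0.23, with adjusted p-values from 0.369 to 0.815.

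This comparison turned on nanozyme replicate 2. Without it, Bmp4 (1.07, adjusted p = 0.0393) and Id1 (0.52, adjusted p = 0.0226) were called higher, as were 1814 of all tested genes, with 1402 lower. Without both that library and model replicate 2, Bmp4 (0.72, adjusted p = 0.00382), Bmp6 (0.68, adjusted p = 0.0109) and Id1 (0.42, adjusted p = 0.0166) were called. This setting was added after the data were seen. Both libraries were the lowest of their groups for most of the genes described, so leaving them out narrows the spread in the test. In nanozyme replicate 2 the neutrophil markers summed to 3247, above the model range of 2393 to 3115, against 1100 and 1306 in the other nanozyme libraries. The single markers differed: S100a9 (1606) and Retnlg (314) were above every model library. Cxcr2 (19.8) and Mmp9 (42.7) were below every model library, and S100a8 and Csf3r were within the model range. Endothelial markers in nanozyme replicate 2 summed to 1294, against 1805 and 1988. The part of these markers in the result was not tested. Among the other pathway genes 0 of 39 passed, with 10 higher and 1 lower at an unadjusted p under 0.05, the latter being Fst (-1.61 ± 0.33, adjusted p = 0.181).

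**Figure D4:**
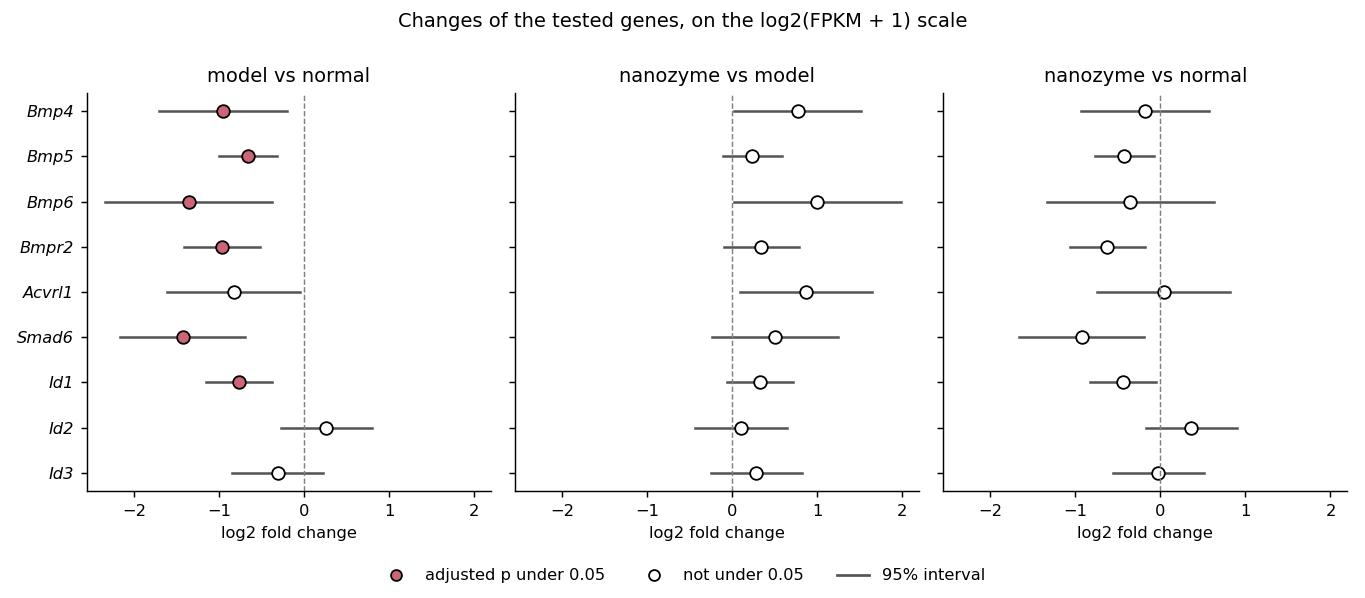
Log2 fold change with its 95% interval (horizontal axes, 1 panel per comparison) for the 9 tested genes; filled circles have an adjusted p under 0.05. In model against normal lung 6 are filled and lie below 0 (Bmp5 turns to 0.06 under endothelial scaling), and in the other panels none is filled.

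Against normal lung, 0 of the 9 genes passed in the nanozyme group, where 5.5% of all tested genes were called lower and 8.39% higher. At an unadjusted p under 0.05 by limma, 4 of the 9 were lower, where 14.4% of all tested genes were lower at that level: Smad6 (-0.93 ± 0.32, adjusted p = 0.0917), Bmpr2 (-0.62 ± 0.19, adjusted p = 0.0662), Id1 (-0.44 ± 0.17, adjusted p = 0.123) and Bmp5 (-0.42 ± 0.15, adjusted p = 0.0955). In 5 of the 9, these 4 and Bmp6, all nanozyme libraries lay below all normal ones, as 20.8% of tested genes did. Without model replicate 2, which enters this comparison through the shared estimate of spread, Bmpr2 (adjusted p = 0.0251), Bmp5 (0.0399) and Smad6 (0.0419) were called lower. Acvrl1 was at 0.04 ± 0.34, Bmp4 at -0.18 ± 0.33, Id3 at -0.03 ± 0.23 and Id2 at 0.36 ± 0.23, with adjusted p-values from 0.341 to 0.958. The nanozyme comparisons share their libraries with each other and with the first comparison, so the values stand side by side and are not independent. Of the other pathway genes 3 of 39 were called, all lower: Bmpr1b (-1.26 ± 0.20, adjusted p = 0.00555), Tob1 (-0.67 ± 0.17, adjusted p = 0.0344) and Kcp (-0.84 ± 0.22, adjusted p = 0.0417).

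Placed between the groups library by library, the nanozyme values split by animal. Nanozyme replicate 1 lay between the model and normal ranges for 4 of the 10 genes (Bmp6, Bmpr2, Smad6 and Id1) and above both for Bmp4, Id2 and Id3. Nanozyme replicate 3 lay between them for 5 (these 4 and Bmp5) and above both for Acvrl1. Nanozyme replicate 2 lay in the model range for 8, between the ranges for Acvrl1 and in the normal range for Id2.

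The genes whose profile over the 9 libraries was most like that of a gene described were sought among 9799 others with a mean of at least 5 FPKM, by the root mean square difference of centred log2(FPKM + 1) values. Nearest to Id1 were Csgalnact2 (0.05), a chondroitin sulfate synthesis enzyme, Pptc7 (0.07) and Aldh4a1 (0.07), a mitochondrial proline-pathway enzyme. Nearest to Id3 were the collagen gene Col16a1 (0.07), Prr12 (0.08) and Tecpr1 (0.09), and nearest to Acvrl1 were the RNA-editing enzyme gene Adarb1, Izumo4 and Ushbp1 (each 0.13). These likenesses are a description over libraries that share their 3 groups.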

How the data were processed

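RNA from 9 mouse lungs was extracted with TRIzol, selected with oligo(dT) and made into strand-marked libraries, per the labels' protocols. The authors deposited 1 table of FPKM values for 25526 gene names. The submitters' processing notes name HISAT2 and the build GRCm38; versions, the annotation and the tool that gave FPKM are not given in the sources used here. Reads could not be recovered from the values, so no count test was run and depth is unknown.

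Groups came from the sample titles. Genes with at least 1 FPKM in at least 3 of the 9 libraries (14540) were tested on log2(FPKM + 1) with limma 3.58.1 (R 4.3.3), with 1 coefficient per group, a spread shared by all 9 libraries, an intensity trend and two-sided p-values adjusted by Benjamini-Hochberg; an adjusted p under 0.05 was called. Fold changes on this scale understate the change of low genes. The fit was tested on simulated data: of 200 genes changed by a log2 of 1, the fit recovered 68% for model against normal, 52% for nanozyme against model and 53% for nanozyme against normal. The simulation gave every group the same spread per gene, unlike the data. These shares therefore differ only by the random draw and do not rank the comparisons.

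The genes described and the gene lists were chosen with earlier results of these data known. The text names all 10 genes; of the other pathway genes and E proteins, up to 8 called with the smallest adjusted p per comparison and a set of core members; up to 2 called markers per list; and for 3 genes the 3 nearest profiles. Bmp2, Bmp3, Smad4, Gdf15, Fstl3, Gdf2, Bmp7, Bmp10, Klrb1c, Inmt, Mfap4 and the neutrophil markers other than Retnlg were named after their values were seen. Gene positions are from GENCODE vM21 and start windows from RefSeq, both on GRCm38. Scripts ran in Python 3.11.15 with matplotlib 3.10.9. Alternatives covered the pseudocount, filter, scaling, model terms and each library left out.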

Additional observations from a re-analysis of the deposited data

How the results depend on the processing

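With 3 libraries per group and unknown depth, small changes could pass undetected. In model against normal lung, the 6 calls among the 9 genes ranged from 4 to 6 when single libraries were left out, and endothelial scaling, added after seeing the data, left 1. Other pathway calls (23) were 13 with a mean FPKM of at least 5, 12 with endothelial scaling and 13 to 27 with single libraries left out. Calls over all genes (5824) ranged from 3836 to 6590 with single libraries left out. The share of higher calls was 43.4%, against 54.2% with equal column sums, 55.3% with median-of-ratios scaling and 95.7% with endothelial scaling.

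In nanozyme against model lung, where limma called 0, array weights (whose fit did not fully converge) gave 3 of the 9 genes, 11 pathway genes and 3034 of all genes. Leaving out single libraries gave 0 to 2, 0 to 13 and 0 to 3216, and leaving out both model replicate 2 and nanozyme replicate 2, also added later, gave 3, 14 and 3342. With no filter on low values 4 of all genes were called.

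In nanozyme against normal lung, the 0 calls among the 9 genes became 1 with median-of-ratios scaling, 2 with quantile normalization, 2 with only the groups compared, 4 with array weights, 0 to 3 with single libraries left out and 2 with both left out. With no filter, where Grem1 is tested too, the 1 call of 10 was Grem1. The 3 pathway calls became 1 with a mean of at least 5 or equal sums, 5 with median-of-ratios scaling, 8 with quantile normalization, 6 with only the groups compared, 15 with array weights, 0 with endothelial scaling and 1 to 5 with single libraries left out. Calls over all genes (2020) were 1285 with a mean of at least 5, 5745 with array weights, 312 with endothelial scaling and 748 to 2258 with single libraries left out. The share of higher calls was 60.4%, against 46.8% with quantile normalization, 70.4% with equal column sums and 88.1% with endothelial scaling. The cause of these shifts was not tested.

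Direction reversed for model against normal under endothelial scaling in Bmp5 (0.060) and Id3 (0.41), and with array weights in Id2 (-0.11). For nanozyme against model, endothelial scaling reversed Bmp5 (-0.42), Bmpr2 (-0.31), Smad6 (-0.16), Id1 (-0.33), Id2 (-0.55) and Id3 (-0.37). Id2 was at -0.016 with median-of-ratios scaling, and single libraries left out gave -0.047 to 0.30 for Id2 and -0.017 to 0.49 for Id3. For nanozyme against normal, Bmp4 was at 0.020 with array weights, 0.12 with both libraries left out and -0.38 to 0.12 with single ones. Acvrl1 was at -0.11 with quantile normalization and -0.27 to 0.28 with single libraries left out. Id3 was at 0.040 with equal sums, 0.0022 with median-of-ratios scaling, 0.016 with array weights, 0.048 with both left out, 0.040 with endothelial scaling and -0.093 to 0.048 with single ones.

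With the replicate block, 6, 0 and 0 of the 9 genes were called in the 3 comparisons, and 22, 0 and 3 pathway genes. The deviations of the 9 same-numbered pairs correlated from -0.33 to 0.23, and 2 of 9 were over 0.1, so the numbers were not taken to pair the animals.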

Other observations

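The ligands of ALK1, the receptor that Acvrl1 encodes, come mainly from other organs, BMP9 from the liver and BMP10 from the heart. Gdf2, which encodes BMP9, was below the level needed for testing in most libraries, at 0.0847, 0.0939 and 0.0845 FPKM in normal lung, at 0.616, 0.197 and 0.352 in the model, and at 1.02, 0.217 and 1.16 in the nanozyme group. All normal values lay below all others. Replicate 2 was the lowest library of both the model and the nanozyme group, as it was for Acvrl1. Bmp10 was listed at 0 in every library but nanozyme replicate 2. Bmp7, a ligand bound by gremlin 1, was at 0.718, 0.654 and 1.10 FPKM in normal lung and at 0.475, 0.544 and 0.545 in the model. The model values were all below the normal ones, a pattern that 34.9% of all tested genes showed. In the nanozyme group Bmp7 was at 0.756, 0.219 and 1.03, which overlapped with both other groups. With the counts behind such low values unknown, they are given as values only.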
